A study of Mus musculus with 18 samples.

Results

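The comparison described here is that of CpG treated bone marrow-derived macrophages (BMDMs) between 2 mouse strains, and its members were chosen by their labels alone. They were 3 samples of C57BL/6 (B6) and 3 of C57BL/6.NOD-*Aec1Aec2* (SjSS), 6 of the 18 samples whose RNA was sequenced. The SjSS mouse is a B6 mouse that carries the NOD intervals *Idd3* (*Aec1*), on chromosome 3, and *Idd5* (*Aec2*), on chromosome 1, and it develops exocrine gland disease that resembles Sjögren's syndrome. Marrow of mice aged 7 to 12 weeks was grown for 7 days with L929 cell supernatant as the source of M-CSF, and the resulting BMDMs of both strains were given 1 µM CpG for 6 h. Per the study, cells were washed after treatment and kept for some further hours before RNA was collected. The other groups were untreated BMDMs and BMDMs fed apoptotic cells (AC) for 2 h, with 3 samples of each strain in each. Per the methods the samples of a strain came from separate mice, and it is not stated if equal numbers mark cells of one animal. The SjSS line carries both intervals together, so that their effects, and those of any further NOD segment in the line, cannot be told apart.

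CpG is an oligonucleotide with unmethylated CpG motifs. It is sensed in endosomes by TLR9, which signals through MyD88 to NF-kB and interferon regulatory factors. In macrophages this turns on early cytokines and chemokines, then a set of antiviral genes that answer to secreted type I interferon, and it shuts off many genes of the resting state. The strain comparison under CpG asks which of these genes stood at a different level in SjSS once the cells had been stimulated.

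The depth was even between the strains, with 39856544 to 52464342 counts on genes in the B6 and 39439235 to 43844395 in the SjSS samples. Replicates of a CpG treated group correlated between 0.986 and 0.991 over log2 CPM (CPM are counts scaled to a common library total). All 15 macrophage markers listed were measured and none was called between the strains, beside 2.61% of all tested genes. At an adjusted p under 0.05 alone 4 were lower in SjSS and 2 higher, and 11 of the log2 fold changes were under 0. The summed levels of the markers were 25390 to 28049 CPM in B6 and 20948 to 22059 CPM in SjSS. *Csf1r*, the M-CSF receptor, was at 2371, 2479 and 2296 CPM in B6 and at 2293, 2351 and 2247 CPM in SjSS. *Adgre1*, which encodes F4/80, had a log2 fold change of -0.33. Both strains thus had the defining markers of the labelled cell type. In bulk samples, fewer cells of a type and less RNA per cell cannot be told apart.

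Of the 20615 genes in the table, 15789 passed the filter on low counts and were tested. Called genes are those with a Benjamini-Hochberg adjusted p under 0.05 in edgeR's quasi-likelihood test whose log2 fold change exceeded 1.3 in either direction. With CpG, 287 genes (1.82%) were called higher in SjSS and 125 (0.792%) lower. The samples of both strains did not overlap for 281 of the genes called higher and for 122 of those called lower, beside 34.2% of all tested genes, 17.6% with SjSS above and 16.6% with SjSS below B6. At the adjusted p alone, 1606 genes (10.2%) were higher and 1511 (9.57%) lower. The median log2 fold change over all tested genes was 0.01. Among the genes called, 145 of those higher and 77 of those lower reached a mean of 1 CPM in the higher group, so that many of the calls were of genes with a low level.

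The genes called lower in SjSS included genes of the acute inflammatory response, and the genes called higher included *Cxcr4* and *Arl4c*, which CpG turns down. A further set stood apart with and without CpG and lay in large part on chromosomes 1 and 3. These sets are described in turn. *Ptgs2* and *Il12a* among the inflammatory genes, and *Cxcr4*, lie on chromosomes 1 and 3 as well.

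**Figure D1:**
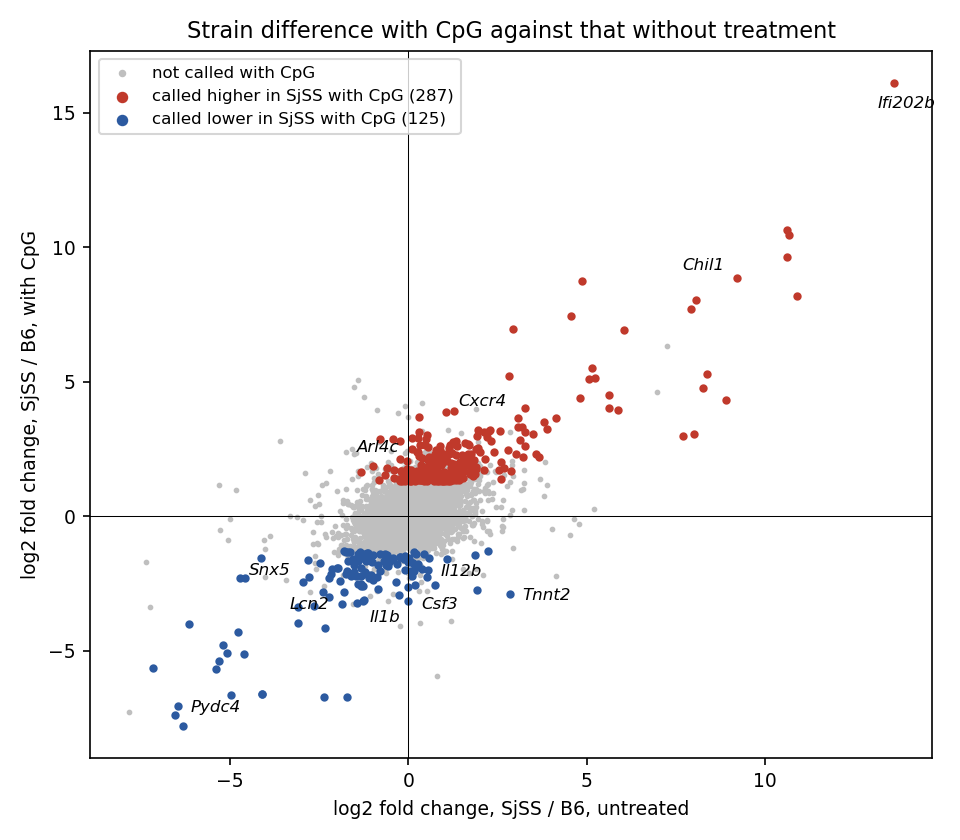
The strain difference with CpG (vertical axis, log2 fold change of SjSS over B6) against the strain difference of untreated BMDMs (horizontal axis, same unit), 1 point per tested gene. The 287 genes called higher with CpG are red and the 125 called lower are blue, and *Ifi202b* and *Chil1* lie far up on both axes while *Cxcr4*, *Il1b* and *Csf3* are displaced mainly on the vertical axis. Values of genes with 0 counts in a group depend on the fit's prior and have no fixed size.

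Cytokines that start inflammation and polarise T cells had 7 members among the genes called lower. Of the 27 listed, 25 were tested and none was called higher. Over all tested genes 0.792% were called lower and 1.82% higher. At the adjusted p alone 13 of the 25 were lower and 4 higher, beside 9.57% and 10.2% of all tested genes. The median log2 fold change of the list was -0.62. *Il1b* (chromosome 2, 129364570 to 129371140) encodes IL-1β, a fever-inducing cytokine that is released after cleavage by caspase-1. It stood at 1263, 1035 and 785 CPM in the CpG treated B6 and at 109, 96.1 and 123 CPM in the CpG treated SjSS samples. Every SjSS sample lay far under every B6 sample, and the level was 9.41-fold lower in SjSS (log2 fold change -3.23, standard error 0.19, edgeR adjusted p = 9.81e-10). *Il1a*, its neighbour, encodes IL-1α, which acts on the same receptor. *Il1a* was at 173, 146 and 127 CPM in B6 and at 31.5, 24.6 and 31.2 CPM in SjSS, a log2 fold change of -2.35 (standard error 0.17, edgeR adjusted p = 1.09e-08).

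*Csf3* encodes G-CSF, the growth factor of neutrophils. It was at 20.6, 16.1 and 12.2 CPM in B6 and at 1.62, 1.88 and 2.06 CPM in SjSS, 8.81-fold lower (edgeR adjusted p = 4.39e-07), and untreated samples of both strains had 0 counts. *Il12b* encodes the p40 chain shared by IL-12 and IL-23, which drive Th1 and Th17 cells. Its levels were 98.9, 102 and 97.9 CPM in B6 and 29.8, 20.6 and 24.6 CPM in SjSS, a log2 fold change of -1.99 (standard error 0.14, edgeR adjusted p = 1.49e-08). *Il12a* (chromosome 3), the partner chain of IL-12, and *Il27*, a cytokine of the same family, were called lower as well. Their log2 fold changes were -1.43 and -1.40. The seventh gene, *Il7*, had under 1 CPM in every sample (log2 fold change -1.65). *Il12a* no longer passed the adjusted p without replicate 1 of CpG treated B6 (log2 fold change -1.17) or without replicate 2 or 3 of CpG treated SjSS. Most of the list's large differences were therefore in the IL-1 and IL-12 families and in G-CSF.

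The cytokines most often measured after TLR stimulation differed less. *Tnf* was at 1051, 944 and 872 CPM in B6 and at 657, 583 and 606 CPM in SjSS. *Il6* was at 26.5, 20.6 and 22.2 CPM in B6 and at 17.3, 12.4 and 15.3 CPM in SjSS. Neither gene overlapped between the strains, and both passed the adjusted p but not the fold threshold, with log2 fold changes of -0.64 (edgeR adjusted p = 0.00183) and -0.62 (edgeR adjusted p = 0.0196). The anti-inflammatory cytokine gene *Il10* did the same, at a log2 fold change of -0.48. *Il6* and *Il10* lost the adjusted p without replicate 1 of CpG treated B6 (log2 fold changes -0.51 and -0.40) and without replicate 2 of CpG treated SjSS (-0.50 and -0.34). In the other direction, *Csf1*, which encodes M-CSF, had a log2 fold change of 0.74 and *Ltb*, a member of the TNF family, of 0.66, also under the fold threshold and with samples that overlapped.

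**Figure D2:**
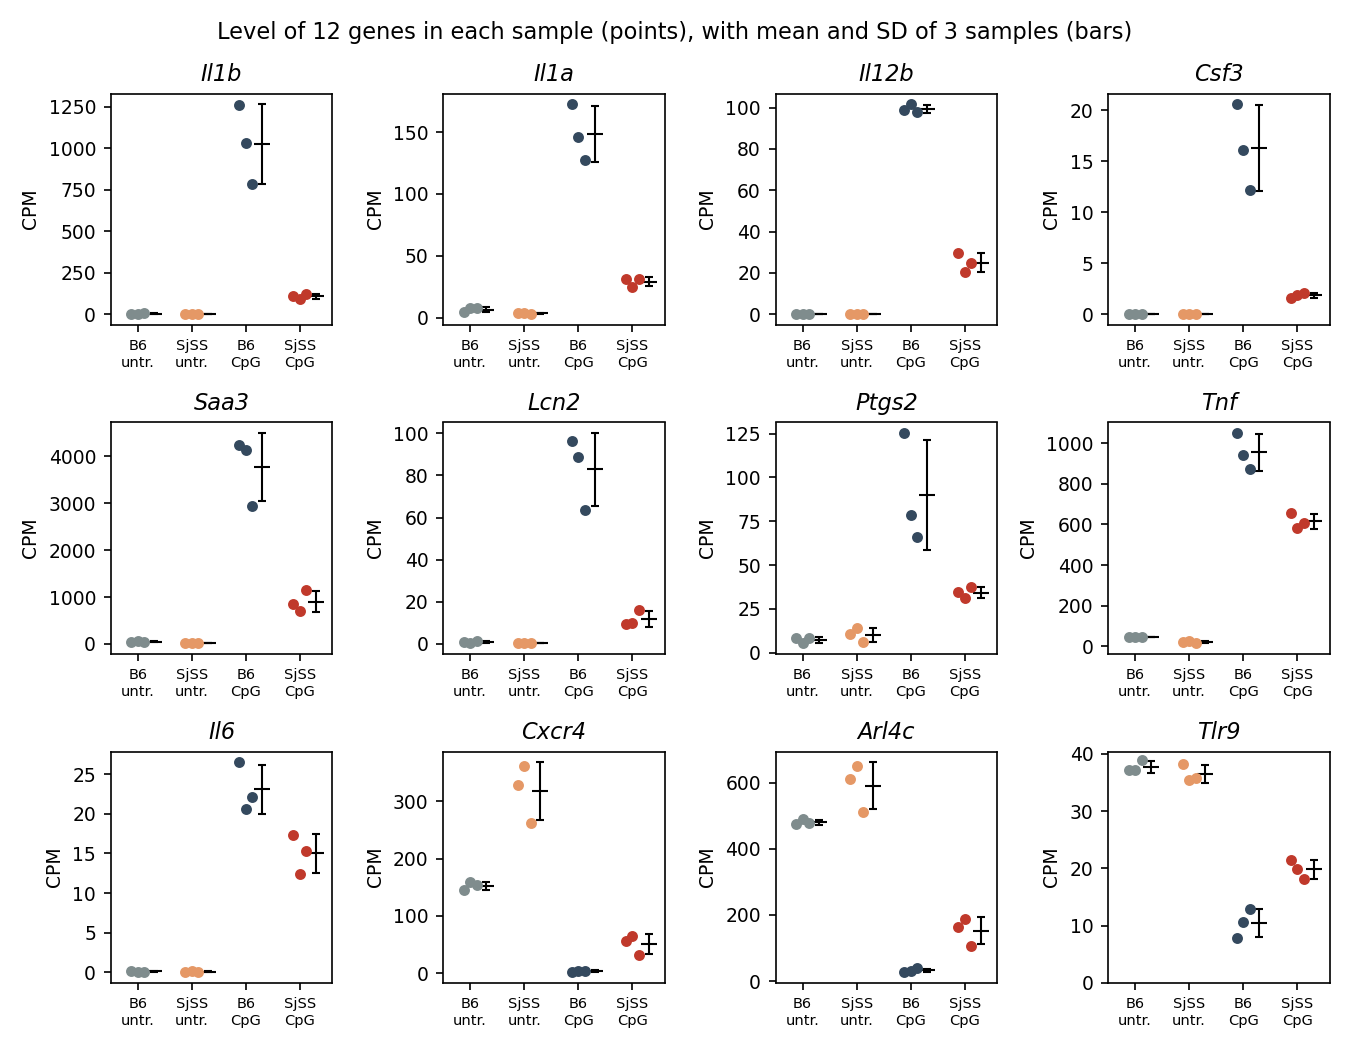
Level in CPM (vertical axes, linear and from 0) of 12 genes in the untreated and CpG treated samples of both strains. Points are single samples and the bars beside them the mean and SD of 3 samples. The CpG treated SjSS samples lie under all CpG treated B6 samples for *Il1b*, *Il1a*, *Il12b*, *Csf3*, *Saa3*, *Lcn2*, *Ptgs2*, *Tnf* and *Il6*, and above them for *Cxcr4*, *Arl4c* and *Tlr9*.

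Of the 30 macrophage effector genes, 6 were called lower and 1 higher, beside 0.792% and 1.82% of all tested genes. At the adjusted p alone 25 were lower and 1 higher, beside 9.57% and 10.2%. The median log2 fold change was -0.78. In untreated SjSS 15 of these genes were already lower and 4 higher at the adjusted p alone, beside 10.6% and 9.04% of tested genes. There 3 were called lower, beside 0.716% of all tested genes, and the median was -0.47. *Lcn2* encodes a protein that captures bacterial iron carriers. With CpG it was at 96.4, 88.9 and 63.5 CPM in B6 and at 9.54, 9.81 and 16.1 CPM in SjSS, 7.02-fold lower (edgeR adjusted p = 6.15e-08). *Saa3*, an acute phase gene, was at 4240, 4143 and 2948 CPM in B6 and at 855, 699 and 1155 CPM in SjSS, 4.18-fold lower (edgeR adjusted p = 4.39e-07). Both were among the genes that differed without any overlap. *Ptgs2* and *Ptges* encode the consecutive enzymes that make prostaglandin E2, and their log2 fold changes were -1.39 and -1.26, the latter just under the fold threshold. *Ptgs2* lies on chromosome 1. *Nos2*, the inducible nitric oxide synthase, and *Slc7a2*, an importer of its substrate arginine, were both called lower, at -1.39 and -1.78. *Upp1*, a uridine phosphorylase, was at 4.64, 6.60 and 3.11 CPM in B6 and at 0.697, 0.519 and 0.936 CPM in SjSS. The gene called higher was *Plac8* (log2 fold change 1.33), at a level near 1 CPM, and it lost the adjusted p without replicate 1 or 3 of CpG treated B6 or replicate 3 of CpG treated SjSS (log2 fold changes 1.16, 1.15 and 0.98). *Marco*, a scavenger receptor, and the complement gene *C3* were lower at -1.0 and -0.76, under the fold threshold.

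Chemokines were lower in smaller steps. Of 24 tested, 11 were lower and 2 higher at the adjusted p alone, beside 9.57% and 10.2% of all tested genes. In each direction 1 gene was called, beside 0.792% lower and 1.82% higher over all tested genes. The median log2 fold change of the list was -0.49. The neutrophil attractants *Cxcl1* and *Cxcl2* had log2 fold changes of -1.23 and -1.18, the monocyte attractant *Ccl7* of -1.19 and *Ccl3* of -0.77. *Cxcl13*, which attracts B cells, was called lower at 4.33, 1.20 and 0.956 CPM in B6 against 0.112, 0.296 and 0.274 CPM in SjSS, and the B6 samples of this gene were widely spread. Without replicate 1 of CpG treated B6 the log2 fold change of *Cxcl13* went from -3.25 to -2.23 and no longer passed the adjusted p, so that the only chemokine called lower rested on that sample. *Ccl8*, another monocyte attractant, was called higher, at 0.262, 0.799 and 0.826 CPM in B6 against 2.83, 1.83 and 2.92 CPM in SjSS.

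Brakes on cytokine signalling were mixed. Of 22 such genes, 8 were lower and 3 higher at the adjusted p alone, beside 9.57% and 10.2% of all tested genes. The median log2 fold change was -0.14. Only 1 gene was called, lower, beside 0.792% of all tested genes. In so short a list 1 call is no result about the list. The called gene, *Dusp2*, encodes a phosphatase of MAP kinases and had a log2 fold change of -1.42. *Socs1* and *Socs3*, inhibitors of cytokine receptors that CpG induces, stood at -1.10 and -1.06, and *Zfp36*, which destabilises cytokine mRNA, at -0.78. Of 15 NF-kB subunits and inhibitors, 11 were lower and none higher at the adjusted p alone, none was called, and the median was -0.33. The same genes were already lower in untreated SjSS, with 10 lower and none higher at the adjusted p alone and a median of -0.36. Over all tested genes 10.6% were lower and 9.04% higher there. With CpG the feedback inhibitor *Nfkbia* was at 933, 879 and 840 CPM in B6 and at 540, 543 and 605 CPM in SjSS. Its log2 fold change was -0.65 (edgeR adjusted p = 3.96e-06). The ubiquitin-binding inhibitors *Tnip3* and *Tnip1* and the subunit gene *Rel* followed at -0.67, -0.47 and -0.43. *Nlrp3*, the inflammasome sensor whose gene is an NF-kB target, was at 429, 425 and 358 CPM in B6 and at 197, 195 and 213 CPM in SjSS, 2.00-fold lower and under the fold threshold. Among receptors, *Fcgr2b*, the inhibitory Fc receptor on chromosome 1, was called lower at 278, 250 and 215 CPM in B6 against 58.0, 56.8 and 49.9 CPM in SjSS, while the costimulatory genes *Cd40* and *Cd86* had log2 fold changes of -0.90 (adjusted p = 2.90e-05) and 0.48 (adjusted p = 0.0577) in edgeR.

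Genes of the machinery that senses CpG and signals from it were lower or higher in shares to be read against the 9.57% and 10.2% of all tested genes. *Tlr9* was at 7.88, 10.7 and 12.8 CPM in B6 and at 21.4, 19.9 and 18 CPM in SjSS, so that all SjSS samples lay above all B6 samples. The log2 fold change was 0.92 (standard error 0.13, edgeR adjusted p = 5.14e-05), under the fold threshold. Untreated samples of both strains had more *Tlr9* mRNA, with means of 37.7 CPM in B6 and 36.5 CPM in SjSS (edgeR adjusted p = 0.829). *Cnpy3*, a chaperone that TLRs need to leave the endoplasmic reticulum, was higher at 0.80, and the bacterial RNA sensor *Tlr13* at 0.48. Of the 17 genes of endosomal sensing, 4 were higher and 1 lower at the adjusted p alone, and of the 23 of MyD88 and IRF signalling 2 were higher and 5 lower, with medians of 0.05 and -0.09. The single call was *Ctsk*, a cathepsin gene with a log2 fold change of -1.50, at a level near 2 CPM in B6. *Tlr7* had a log2 fold change of 0.05 (edgeR adjusted p = 0.785). *Myd88*, the adaptor downstream of TLR9, was at 181, 193 and 168 CPM in B6 and at 149, 141 and 161 CPM in SjSS, a log2 fold change of -0.26.

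Of the antiviral genes that answer to type I interferon, 39 were tested and none was called with CpG, beside 2.61% of all tested genes. At the adjusted p alone 2 were lower (*Mx2* and *Cmpk2*) and none higher, beside 9.57% and 10.2% of all tested genes. The median log2 fold change was -0.20. The interferon-inducible GTPases gave a similar picture, with none of 20 called, 1 lower at the adjusted p alone and a median of -0.35. In lists this short an absence of calls is no result about their genes. Without treatment the same antiviral genes were higher in SjSS, with 26 of 39 higher and 1 lower at the adjusted p alone. There 9.04% of all tested genes were higher and 10.6% lower, and the median of the antiviral genes was 0.70. *Usp18*, which removes ISG15 from proteins and damps the interferon receptor, shows this. Its mean was 5.47 CPM in untreated B6 and 15.9 CPM in untreated SjSS, and with CpG it was at 70.4, 120 and 84.1 CPM in B6 and at 63.5, 40.5 and 85.2 CPM in SjSS. The CpG treated samples of both strains overlapped, and the spread within a strain was wide for these genes, with replicate 2 the lowest of the SjSS samples for *Usp18*, *Ifit1*, *Rsad2* and *Oasl1*. The summed level of the list ranged from 5153 to 7524 CPM in CpG treated B6 and from 4309 to 6807 CPM in CpG treated SjSS samples.

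**Figure D3:**
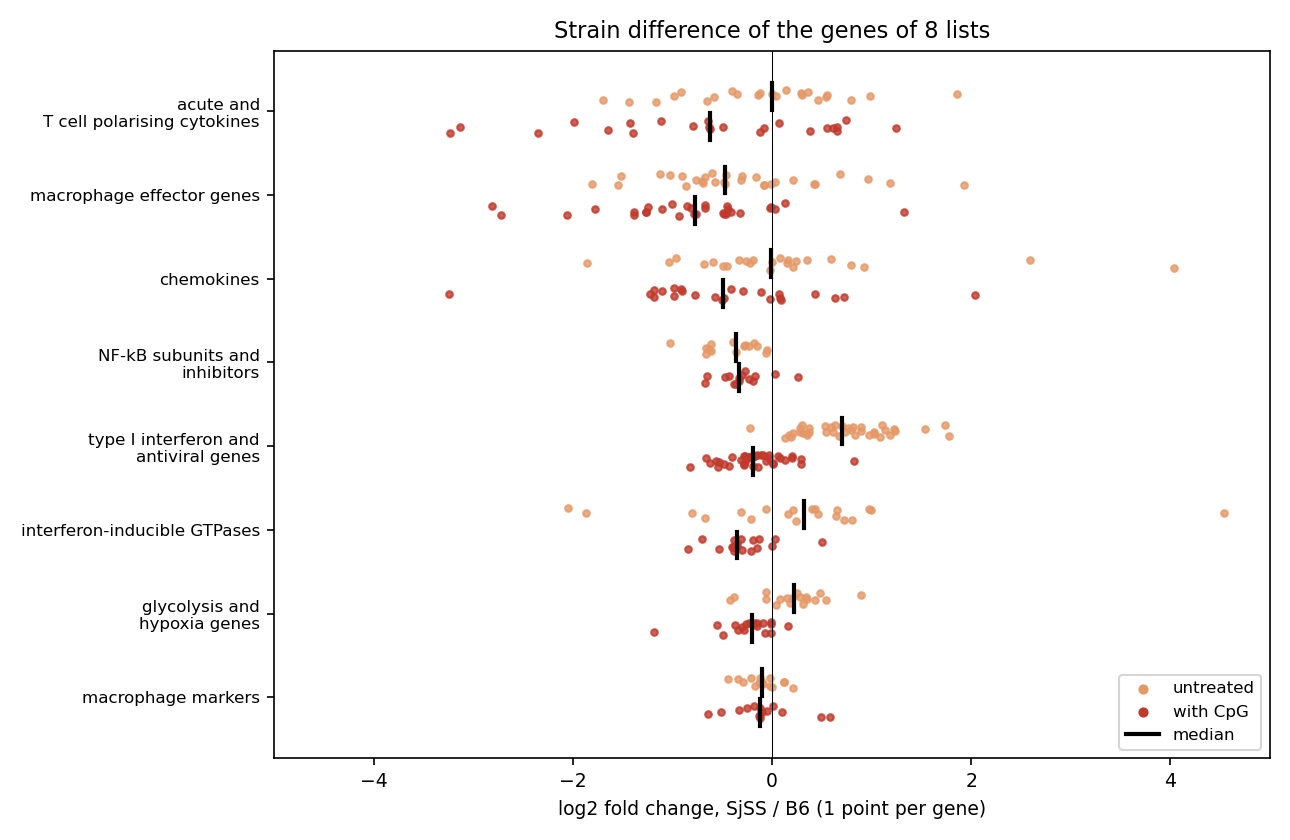
Log2 fold change of SjSS over B6 (horizontal axis) for each tested gene of 8 lists with more than 3 counts in a CpG group, in untreated BMDMs (orange) and with CpG (red), with the median of each list as a black bar. With CpG the medians are -0.62 for the cytokines, -0.78 for the effector genes and -0.49 for the chemokines, and the median of the antiviral genes is 0.70 untreated and -0.20 with CpG.

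Promoter sequence of some of these genes is printed to set 3 antiviral genes beside *Il1b* and *Il12b*. The sequences are RefSeq's (build GRCm38.p6), the 250 bases before the annotated start, 5′ to 3′ on the strand of the gene. Capitals mark the core of the interferon-stimulated response element, searched on both strands as TTTC, any 2 bases and TTTC. Overlapping matches, as in *Isg15*, run together. *Il1b* lies on the minus strand at chr2:129371140-129371389, *Il12b* on the plus strand at chr11:44399813-44400062, *Ifit1* on the plus strand at chr19:34640639-34640888, *Isg15* on the minus strand at chr4:156200819-156201068 and *Rsad2* on the minus strand at chr12:26456453-26456702.
Il1b: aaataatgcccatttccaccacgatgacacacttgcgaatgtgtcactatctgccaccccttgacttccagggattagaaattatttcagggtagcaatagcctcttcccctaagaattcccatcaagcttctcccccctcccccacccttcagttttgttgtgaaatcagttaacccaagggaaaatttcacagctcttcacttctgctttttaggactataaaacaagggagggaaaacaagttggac
Il12b: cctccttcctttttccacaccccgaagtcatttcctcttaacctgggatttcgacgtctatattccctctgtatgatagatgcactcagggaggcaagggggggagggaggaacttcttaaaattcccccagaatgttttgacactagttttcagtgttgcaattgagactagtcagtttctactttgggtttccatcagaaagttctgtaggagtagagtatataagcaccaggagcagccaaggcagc
Ifit1: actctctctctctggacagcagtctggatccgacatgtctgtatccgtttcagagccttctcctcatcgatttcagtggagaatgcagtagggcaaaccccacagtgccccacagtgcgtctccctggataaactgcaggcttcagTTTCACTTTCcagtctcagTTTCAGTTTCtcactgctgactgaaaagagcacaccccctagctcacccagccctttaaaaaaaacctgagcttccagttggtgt
Isg15: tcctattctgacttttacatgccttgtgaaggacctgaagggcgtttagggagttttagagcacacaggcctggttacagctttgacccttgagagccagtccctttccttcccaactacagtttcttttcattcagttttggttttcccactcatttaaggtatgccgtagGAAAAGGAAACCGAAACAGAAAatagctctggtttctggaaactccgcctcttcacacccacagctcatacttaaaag
Rsad2: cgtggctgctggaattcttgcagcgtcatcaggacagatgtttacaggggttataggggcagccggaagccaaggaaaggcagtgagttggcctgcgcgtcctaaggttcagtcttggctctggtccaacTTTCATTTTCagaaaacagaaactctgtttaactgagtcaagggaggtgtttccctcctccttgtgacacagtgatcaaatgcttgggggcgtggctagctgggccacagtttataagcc

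A RefSeq promoter was at hand for 10389 of the 15789 tested genes, and 2.78% of them held this core. It was present in 12 of the 29 antiviral genes with a promoter (41.4%) and in 1 of 10 cytokine, brake, chemokine and effector genes called lower, which was *Saa3*. The consensus motif of NF-kB was found on either strand in 8.81% of promoters of tested genes, in 13.9% of the 79 promoters of genes called lower, in 7.78% of the 180 of genes called higher, in 6 of the 29 antiviral genes and in none of those 10. A match is a match of letters, and the window holds no distal element.

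*Cxcr4* and *Arl4c* were turned down by CpG in both strains and were called higher in CpG treated SjSS. The share of all genes called higher that CpG turned down is not given here. *Cxcr4* (chromosome 1, 128588199 to 128592294) encodes the receptor of CXCL12, which retains cells in bone marrow. Untreated means were 152 CPM in B6 and 318 CPM in SjSS, and with CpG the gene was at 1.71, 4.47 and 4.39 CPM in B6 and at 56.2, 65.8 and 31.4 CPM in SjSS. The 3 SjSS samples lay above the B6 samples by 14.8-fold on average (log2 fold change 3.88, standard error 0.27, edgeR adjusted p = 8.15e-09). *Arl4c*, a small GTPase gene that LXR induces, went from means of 481 CPM in B6 and 591 CPM in SjSS without treatment to 26.8, 31.7 and 38.1 CPM in B6 and 164, 189 and 106 CPM in SjSS with CpG. Its log2 fold change with CpG was 2.25 (standard error 0.16, edgeR adjusted p = 9.51e-09), against 0.30 without treatment (edgeR adjusted p = 0.17).

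The list of 23 cholesterol and lipid genes was mixed, with 11 log2 fold changes above 0, 12 under 0 and a median of -0.01. At the adjusted p alone 7 were higher and 9 lower, beside 10.2% and 9.57% of all tested genes. *Abcg1*, a cholesterol exporter, was called higher at 36.2, 46.6 and 50.3 CPM in B6 against 155, 145 and 105 CPM in SjSS. *Mylip*, a ubiquitin ligase gene, had a log2 fold change of 1.29 and the exporter *Abca1* of 0.69, both past the adjusted p and under the fold threshold. *Idi1* and *Sqle*, enzymes of cholesterol synthesis, had log2 fold changes of -1.18 and -1.02, and *Apoe*, which encodes a lipid carrier and is, like *Abcg1*, *Abca1* and *Mylip*, a known target of the sterol-sensing receptor LXR, of -0.63. Of the list, 2 genes were called higher (*Abcg1* and *Scd1*, a fatty acid desaturase gene) and 1 lower (*Ch25h*, which makes an oxysterol). Over all tested genes 1.82% were called higher and 0.792% lower.

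Whether the response to CpG itself differed between the strains was tested as the interaction of strain and CpG. It uses the same CpG treated samples as the comparison above, so that the values are given side by side and are no second line of evidence. The response was called higher in SjSS for 45 genes (0.285%) and lower for 52 (0.329%), and at the adjusted p alone the shares were 3.24% and 2.62%. Interactions are log2 differences of the strain effect with CpG from that without. For the genes that were lower, the interaction was -1.79 for *Il1b* (edgeR adjusted p = 0.00359), -1.37 for *Il1a* (edgeR adjusted p = 0.00463) and -1.82 for *Ptgs2* (edgeR adjusted p = 0.00417). *Il1b* and *Il1a* were already lower in untreated SjSS, with log2 fold changes of -1.44 and -0.98, at means of 5.26 against 1.97 CPM and of 6.47 against 3.32 CPM. *Il12b* had an interaction of -2.54, which did not pass (standard error 1.07, edgeR adjusted p = 0.184), since it had almost no counts without treatment. *Tnf* had an interaction of 0.54 (edgeR adjusted p = 0.109) and *Lcn2* and *Saa3* of -1.0 (edgeR adjusted p = 0.408) and -0.55 (edgeR adjusted p = 0.265).

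Of the 39 antiviral genes, the interaction was lower for 20 at the adjusted p alone and called for 9, with none higher, and its median was -0.74 beside 0.03 over all tested genes. For *Usp18* it was -2.07 (edgeR adjusted p = 0.000384), for *Ifit1* -1.76 and for *Oasl1* -1.77. *Cxcl10*, a T cell attractant that interferon induces, had -2.03. In the other direction, *Cxcr4* had 2.82 (edgeR adjusted p = 7.27e-05) and *Arl4c* 1.95 (edgeR adjusted p = 2.47e-05). *Tlr9* had 0.97 (edgeR adjusted p = 0.00267). *Serpinb2*, a protease inhibitor gene on chromosome 1, stood at a mean of 3.94 CPM in untreated B6 and 16.4 CPM in untreated SjSS, and with CpG at 10.9, 8.33 and 11 CPM in B6 and 5.87, 4.84 and 4.68 CPM in SjSS. Its order between the strains was thus the opposite with CpG, and the interaction was -3.01.

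The strain difference of untreated BMDMs shares no samples with that of CpG treated ones, but untreated and CpG treated samples of 1 number deviated together within a strain (correlations of 0.137 to 0.263 in B6 and 0.059 to 0.142 in SjSS), so that the 2 differences may not be independent. It was called higher for 205 genes (1.3%) and lower for 113 (0.716%), while 9.04% and 10.6% passed the adjusted p alone. There were 99 genes called higher in both, which were 34.5% of those called higher with CpG and 48.3% of those called higher untreated. There were 52 genes called lower in both, 41.6% of the list with CpG and 46.0% of the untreated list. A single gene turned over, *Tnnt2*, the cardiac troponin T gene, which was called lower with CpG at 48 counts in B6 against 6 in SjSS and called higher without treatment. With AC, where the strains differed at many more genes (6.24% of genes called higher and 2.69% lower, 8.94% in all), 127 of the genes called higher with CpG were called higher and 6 lower. Of the 125 called lower with CpG, 35 were called lower with AC and 28 higher. Among the latter were *Il1a* (log2 fold change 2.06 with AC), *Il12b* (4.20) and *Il27* (4.53), and *Il1b* stood at 1.32. These 4 genes were thus lower than in B6 with CpG and higher than in B6 with AC.

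The genes called with CpG were unevenly placed in the genome. On chromosome 1, 94 of 1046 tested genes (8.99%) were called, 60 higher and 34 lower, and on chromosome 3, 52 of 831 (6.26%), 33 higher and 19 lower. The share over all tested genes was 2.61%, and no other chromosome exceeded the 2.67% of chromosome 14. Chromosomes 1 and 3 held 11.9% of the tested genes and 35.4% of those called. Of their 146 called genes, 84 (57.5%) were called the same way without treatment, against 67 of 266 (25.2%) elsewhere. In windows of 10 Mb with at least 20 tested genes, the shares were highest on chromosome 1 between 80 and 90 Mb (24 of 80 genes) and between 170 and 180 Mb (26 of 123, 21.1%). The median window had 1.79%. Chromosome 3 between 90 and 100 Mb (16 of 154, 10.4%) and chromosome 17 between 40 and 50 Mb (10 of 98, 10.2%) followed further windows of chromosome 1.

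**Figure D4:**
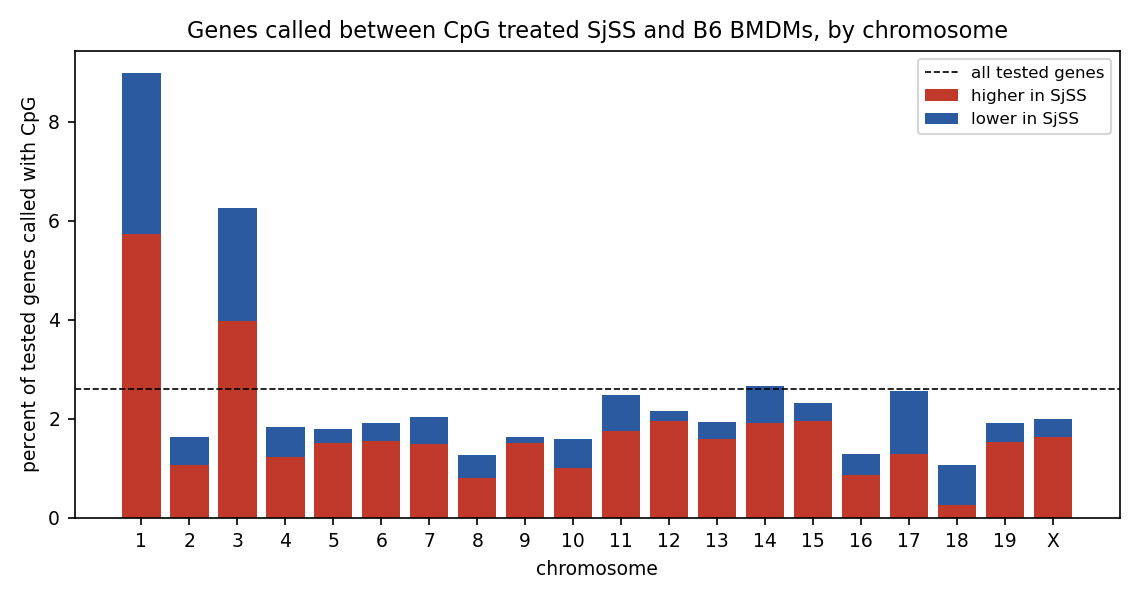
Percent of the tested genes of each chromosome (horizontal axis) that were called between CpG treated SjSS and B6 BMDMs, stacked as higher (red) and lower (blue) in SjSS. The dashed line is the share over all tested genes, 2.61%, and chromosomes 1 (8.99%) and 3 (6.26%) rise above it.

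Some of these genes had counts in 1 strain only. *Ifi202b* (chromosome 1, 173962568 to 173982745) is an interferon-inducible gene of the PYHIN family, whose products bind DNA. It had 0 counts in the CpG treated B6 samples and stood at 208, 140 and 211 CPM in SjSS, at least 8340-fold higher if the B6 samples together are set to 3 counts. Its family neighbours ran the other way. *Pydc4* was at 21.3, 38.0 and 33.8 CPM in B6 and at 0.450, 0.0247 and 0.205 CPM in SjSS, *Gm4955* had a log2 fold change of -6.65 and *Ifi205* of -3.15. Members of this family are near copies of each other, so that the estimated counts may be split between them, and reads were aligned to the B6 genome.

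*Chil1*, a chitinase-like protein gene of activated macrophages, had 14 counts in B6 and was at 49.6, 42.3 and 57.7 CPM in SjSS, a log2 fold change of 8.85. *Npl*, a lyase that breaks down sialic acid, was at 4.76, 4.50 and 4.93 CPM in B6 and at 32.7, 36.6 and 32.6 CPM in SjSS, and its spread within a strain was small beside the difference (log2 fold change 2.84, standard error 0.08, edgeR adjusted p = 1.00e-14). *Ugt1a8* and *Ugt1a9*, overlapping genes of UDP-glucuronosyltransferases, had 0 counts in B6 and were at least 167-fold and 184-fold higher in SjSS by the same rule. Estimated counts may be split between overlapping genes, and reads were aligned to the B6 genome. *Glrp1*, a neighbour of *Ugt1a8* and *Ugt1a9*, had 76 counts in B6 and 0 in SjSS. *Qsox1*, a sulfhydryl oxidase, and *Steap3*, an iron reductase, were higher at 2.02 each. On the lower side *Lad1*, which encodes ladinin, was at 39.5, 32.9 and 32.6 CPM in B6 and at 2.14, 1.75 and 1.96 CPM in SjSS. All these genes lie on chromosome 1. *Chil1*, *Npl*, *Qsox1* and *Steap3* were called in the same direction untreated, at log2 fold changes of 9.21, 3.13, 1.49 and 1.72.

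Other genes with large or precisely measured differences included *Snx5*. *Snx5* on chromosome 2, a sorting nexin, was at 188, 172 and 181 CPM in B6 and at 36.0, 33.6 and 31.2 CPM in SjSS (log2 fold change -2.42, standard error 0.07, edgeR adjusted p = 2.11e-14). *Tpm3* on chromosome 3, a tropomyosin, and its retrocopy *Tpm3-rs7* on chromosome 14 moved in opposite directions, at -1.94 and 0.92. Their sequences are near copies, and how the authors' counting split the reads between them is uncertain. The histone gene *Hist1h2al* on chromosome 13 had 2 counts in B6 and 1806 in SjSS, a ratio of 934 (exact 95% interval 258 to 7720, counting error only). It too belongs to a family of near copies. On chromosome 17 *A530064D06Rik* and *Guca1a* were lower at -5.06 and -5.10, and on chromosome 14 *Gm16867* at -7.40.

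Of 30 genes often discussed as candidates within *Idd3* and *Idd5*, 22 were tested. None was called, beside 2.61% of all tested genes. At the adjusted p alone 2 were higher and 3 lower, beside 10.2% and 9.57% of all tested genes. So short a list cannot show that candidates are called less often than other genes. *Slc11a1*, a metal transporter of phagosomes, was at 731, 786 and 737 CPM in B6 and at 680, 717 and 698 CPM in SjSS (log2 fold change -0.11, edgeR adjusted p = 0.15). *Exosc9*, of the RNA exosome, was lower at -0.63 and *Tns1*, a focal adhesion gene, higher at 0.95, both past the adjusted p and under the fold threshold. *Il21* and *Ctla4* were not analysed here.

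Genes of stromal cells and matrix were looked at after the values were seen. A list of 30 such genes was written then, so that its counts are a description fixed in part by that choice. With CpG it had 9 members called higher, beside 1.82% of all tested genes, and none lower. At the adjusted p alone 21 were higher, beside 10.2%, and the median log2 fold change was 1.13. With CpG the 30 genes summed to 469, 212 and 441 CPM in B6 and 736, 869 and 868 CPM in SjSS. Without treatment they summed to 250 to 674 CPM in B6 against 823 to 1089 CPM in SjSS. *Col1a1*, the chain of type I collagen, was at 36.8, 15.6 and 35.8 CPM in B6 and at 62.3, 87.2 and 80.8 CPM in SjSS. *Col1a2*, *Fn1* and *Timp3* had log2 fold changes of 1.23, 1.34 and 2.09, and macrophages also express *Fn1*. None of the 30 genes was at 0 in all samples. Replicate 2 of CpG treated B6 was the lowest B6 sample for 155 (54.0%) of the 287 genes called higher, against 33.1% of all tested genes. Without it 210 genes were called higher, of which 174 were called with all samples, and 3 of the 30 stromal and matrix genes were called. The part of these cells in the genes called higher was not tested.

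**Figure D5:**
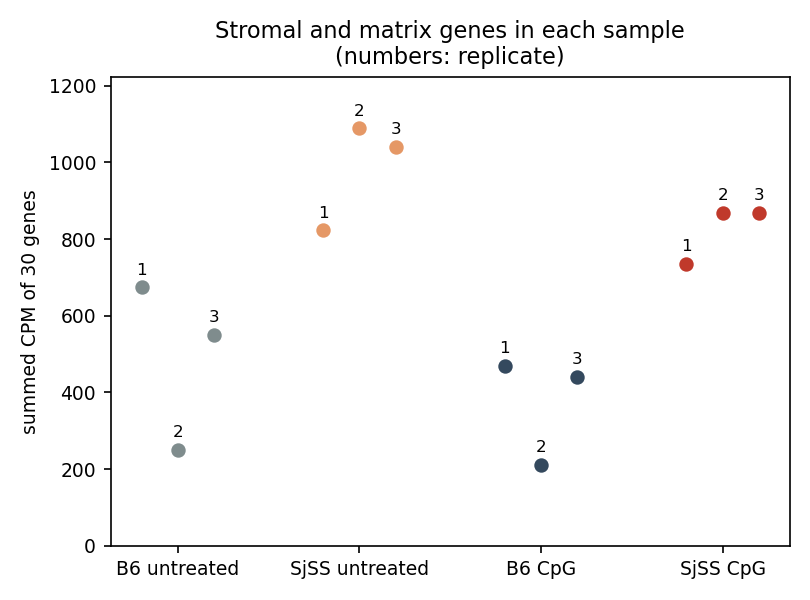
Summed CPM of 30 stromal and matrix genes (vertical axis, from 0) in each untreated and CpG treated sample, numbered by replicate. The CpG treated SjSS samples lie between 736 and 869 CPM, above the CpG treated B6 samples, and replicate 2 is the lowest B6 sample in both treatments.

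Markers of other cells were measured by lists. Of all tested genes 10.2% were higher and 9.57% lower at the adjusted p alone, and 2.61% were called. In lists this short a single call, or none, is no result about the list. Over 10 T lineage markers the summed level was 5.0 to 6.2 CPM in B6 and 6.5 to 8.4 CPM in SjSS, with *Rag1* at 0 in all 6 samples. The 7 B lineage markers summed to 25.7 to 28.0 CPM in B6 and 34.4 to 48.5 CPM in SjSS, and of 6 tested 3 were higher at the adjusted p alone, with a median log2 fold change of 1.09. *Ebf1* was called higher at a level near 1 CPM, a call lost without replicate 2 of CpG treated B6 (log2 fold change 0.98), and *Ighm* was higher at 0.81. Of the neutrophil markers, 6 were in the table and summed to 11.2 to 13.2 CPM in B6 and 5.7 to 6.1 CPM in SjSS, and *S100a9* was called lower at 109 against 5 counts, a call lost without replicate 3 of CpG treated B6, where the log2 fold change went from -4.31 to -3.0. The dendritic cell markers summed to 22.6 to 30.1 CPM in B6 and 22.3 to 25.4 CPM in SjSS, ranges that overlapped. Of 5 tested 1, *Clec9a*, was called, higher. The mast cell and basophil markers summed to at most 1.2 CPM in either strain, with none called. The 8 stromal and other markers in the table summed to 56.4 to 115 CPM in B6 and 186 to 226 CPM in SjSS, and of 7 tested 3 were higher at the adjusted p alone and 1, *Col1a1*, was called, with a median of 0.98. The part of these cells in the results was not tested.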

How the data were processed

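RNA of the BMDMs was sequenced. The table that the authors deposited holds estimated counts per gene without normalization, made by STAR alignment (mm10) and the E/M quantification of Partek. Values were rounded before testing, since 41.1% were not whole (tolerance 1e-06). Of the gene names, 23 had become dates and 19 were resolved by position against GENCODE M21. Gene coordinates (mm10) were read from the same table.

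Counts were analysed with edgeR 4.0.16 in R 4.3.3 (DESeq2 1.42.0 as an alternative). Genes were kept by filterByExpr, libraries scaled by TMM, and all 18 samples entered 1 quasi-likelihood fit with 6 group means. Within each comparison, p was adjusted after Benjamini and Hochberg. The standard error was the size of the log2 fold change divided by the square root of F. Folds against 0 counts are lower bounds against 3 counts over the group, and exact binomial 95% intervals cover counting error only. On simulated counts in which 200 genes differed between the CpG groups at a log2 fold change of 2, edgeR recovered 200 of them with 1 false call among 15789 genes, and 199 with 1 false call in the interaction. These 200 genes were drawn only from genes above a minimum mean count, and their change exceeded the fold threshold. Recovery of genes at a low level or of smaller changes was not tested. P values set a difference against the spread within groups. That spread was estimated from all 18 samples, and thus also from groups other than those compared.

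Named were the members of the gene lists, the 12 largest increases and decreases among called genes without overlap and with at least 1 CPM, the 10 smallest p in each direction, the 8 largest interactions in each direction, the 5 largest changes in the windows with the highest shares, and genes the study names. The comparison, lists and rules were chosen with earlier results of these data known, and the stromal and matrix list, the 1 CPM count and the block within strain were chosen after seeing the data. *Tnnt2* was singled out after its values were seen. Alternatives were DESeq2, other scalings, filters and fold thresholds, fewer groups, a replicate block, thinned libraries, other window sizes and each sample left out. *Csf3* and *Nos2* had no promoter in the table used.

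The CpG, untreated and AC groups are compared only within one table. The study's other assays were not analysed here. In one of them, after a longer treatment, the study found more secreted IL-6 and IL-12p70 from CpG treated SjSS than from B6 BMDMs. In another, RT-qPCR after CpG at the same dose and time, *Il6* rose in SjSS BMDMs. From its TLR7 and TLR9 agonist assays the study concluded that *Ifnb*, *Ifng*, *Il6* and *Il1b* were expressed more in SjSS than in B6 BMDMs. Supernatants of those assays held more IL-6, IL-12p70 and IL-1β. The *Il6* and *Il1b* mRNA levels given here were lower in SjSS, and the reason for the discrepancy was not tested. The mRNA levels given here do not measure secreted protein. One listed gene is not reported here.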

Additional observations from a re-analysis of the deposited data

Results flagged for a closer look

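The difference between the strains changed between untreated and CpG treated BMDMs, by the test of the interaction, for 45 genes whose CpG response was higher in SjSS and 52 whose response was lower. The following interactions are log2 values from edgeR's quasi-likelihood test, each past the adjusted p and the fold threshold.

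Among the inflammatory genes, the interaction was -1.79 for *Il1b*, -1.37 for *Il1a*, -1.46 for *Slc7a2*, -1.82 for *Ptgs2*, -4.65 for *Upp1* and -1.66 for *Adm*, a hormone gene induced by hypoxia. Among genes that interferon induces, it was -2.03 for *Cxcl10*, -2.07 for *Usp18*, -1.76 for *Ifit1*, -1.68 for *Rsad2*, -1.64 for *Mx2*, -1.71 for *Cmpk2* and -1.77 for *Oasl1*. These genes were higher in untreated SjSS than in untreated B6 BMDMs, by log2 fold changes from 0.81 (*Mx2*) to 1.78 (*Oasl1*) for all but *Cxcl10*, where the untreated difference of 0.92 had an edgeR adjusted p of 0.0723. The interaction was -3.01 for *Serpinb2* and -5.72 for *Tnnt2*, the latter on 48 and 6 counts with CpG.

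On the other side, the interaction was 2.82 for *Cxcr4*, 1.95 for *Arl4c*, 2.19 for *Cytip*, 2.45 for *Fcrl5*, 2.97 for *Mfsd7c* and 2.39 for *Spib*. *Cytip*, which restrains cell adhesion, had a mean of 34.5 CPM in untreated B6 and 19.4 CPM in untreated SjSS, and with CpG it was at 2.74, 1.38 and 2.89 CPM in B6 and 7.6, 6.72 and 3.95 CPM in SjSS. *Spib*, a transcription factor of B cells and plasmacytoid dendritic cells, had means of 0.268 and 0.262 CPM without treatment and was at 1.43, 1.28 and 1.72 CPM in B6 and 9.69, 6.57 and 8.75 CPM in SjSS with CpG.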

How the results depend on the processing

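With CpG, 287 genes were called higher and 125 lower in SjSS. The counts were 112 and 64 with a log2 fold threshold of 2, 447 and 209 with one of 1, 1606 and 1511 with none, and 145 and 77 among genes of at least 1 CPM, an alternative chosen after seeing the data. The CpG response was called higher and lower for 15 and 13 genes, 83 and 84, and 512 and 413 at the same 3 thresholds, and the untreated strain difference for 92 and 51, 314 and 184, and 1428 and 1668. Genes called higher both with CpG and untreated numbered 51 with the threshold of 2 and 584 with none, and genes called lower in both 27 and 588. The share called on chromosomes 1 and 3 was 4.42% with the threshold of 2 and 27.7% with none, and the highest share of a window was 18.6% with windows of 20 Mb. DESeq2 called 286 higher and 135 lower. Unscaled library totals gave 362 and 112 and moved the median of all genes to 0.10. Thinned libraries gave 272 and 110, and a fit of the compared groups alone 214 and 109.

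Leaving out 1 sample gave 210 to 346 genes higher and 108 to 146 lower with CpG, 30 to 61 and 44 to 65 for the response, and 140 to 232 and 90 to 118 untreated. The lowest of these were without replicate 2 of CpG treated B6 (210), replicate 1 of CpG treated SjSS (108 and 30), replicate 2 of untreated B6 (44 and 140) and replicate 1 of untreated SjSS (90).

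Same-numbered samples of both strains did not deviate together (correlations -0.044 to -0.002 with CpG), so that the numbers do not pair the strains. With the replicate number as a block, 282 genes were higher and 126 lower. Within a strain, same-numbered untreated and CpG treated samples correlated at 0.137 to 0.263 in B6 and 0.059 to 0.142 in SjSS. With the number as a block within each strain, an alternative chosen after seeing the data, the response was called higher for 51 genes and lower for 63, of which 42 and 52 were also called without it, and all 21 named genes with a called interaction kept their call. The strain difference itself cannot be fitted with that block.

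Of 3078 values for 114 named genes, 2976 kept their direction and side of the adjusted p threshold, 68 values of 12 genes lost it, 23 values of 6 genes gained it and 11 reversed. The genes that lost it were *Cmpk2*, *Ltb*, *Marco*, *Fcrl5*, *Ebf1*, *Plac8*, *Il10*, *Il12a*, *Il6*, *Csf1*, *Cxcl13* and *S100a9*. *Oasl1* turned to -0.247, -0.182, -0.024, -0.023, -0.015, -0.011 and, without replicate 1, 2 or 3 of SjSS with AC, to -0.009. Leaving out 1 sample gave *Oasl1* values up to 0.256 and *Tlr7* values from -0.056, without replicate 1 of CpG treated SjSS, to 0.133. *Csf1r* turned to 0.042 with unscaled totals. The cause was not tested.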

Other observations

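Genes of glycolysis and the hypoxic response, which activated macrophages use for fast energy supply, were slightly lower in CpG treated SjSS BMDMs. Of 18, 8 were lower and none higher at the adjusted p alone (edgeR), beside 9.57% and 10.2% of all tested genes. None was called, beside 2.61%, and the median log2 fold change was -0.21. In untreated BMDMs the same genes had 7 higher and 2 lower, beside 9.04% and 10.6%, and a median of 0.22. *Adm* was at 24.9, 17.2 and 14.6 CPM in B6 and at 6.25, 8.08 and 10.6 CPM in SjSS with CpG. Of 13 iron and metal genes, 4 were lower and none higher at the adjusted p alone, with the haptoglobin gene *Hp* at a log2 fold change of -1.27 (112, 97.4 and 83.6 CPM against 31.1, 36.8 and 53.7 CPM).

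The counts that follow are to be read against all tested genes, of which 10.2% were higher and 9.57% lower at the adjusted p alone and 2.61% were called. In lists this short an absence of calls is no result about their genes. Of 22 cell cycle genes, 3 were higher and 3 lower at the adjusted p alone and none was called. Of 29 genes of apoptotic cell uptake, 4 were higher and 8 lower and none was called. *Axl* was at 233, 189 and 173 CPM in B6 and 114, 106 and 120 CPM in SjSS with CpG (log2 fold change -0.81), while *Mertk*, its relative, had a log2 fold change of -0.12 (edgeR adjusted p = 0.30). Of 26 genes of costimulation and antigen presentation, 5 were lower and none higher, and *Fcgr2b* was the only call. Of 12 inflammasome genes, 2 were higher and 5 lower and none was called.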
